A study of Homo sapiens with 4 samples.

Results

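TOV112D is an established human epithelial ovarian cancer cell line, and its gene expression was compared here for the regulators of the tumour suppressor p53 and for the genes through which p53 halts growth. The members were the 9 genes MDM2, MDM4, CDKN1A, SESN1, BTG2, ZMAT3, GADD45A, TP53INP1 and PPM1D, taken by their gene symbol in the platform annotation. They had 12 of the 28264 probes of the array, for 8 of the 19090 genes with a named probe, since no probe was named for BTG2. In HD, cells were transfected with a plasmid that expresses HOXD10, a homeobox transcription factor. The ND cells were the control, which the figure legends give as the control plasmid and the array methods as mock-transfected cells. Each group had 2 single-colour arrays hybridised with Cy5-labelled RNA, and the methods state that transfection reached most but not all cells.

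p53 is a transcription factor that is stabilised after DNA damage and other stress, and that switches on genes for cell cycle arrest, repair and cell death. Among its targets are MDM2, a ubiquitin ligase that sends p53 to the proteasome, and PPM1D, a phosphatase that turns the damage signal off, so that the response limits itself. MDM4, a relative of MDM2, binds p53 and blocks its activity as a transcription factor. TOV112D cells are known to carry a missense-mutant p53. The comparison asked which of these genes differed when HOXD10 was introduced.

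The genes of this group did not move together. MDM4 and ZMAT3 rose in HD cells, by 0.81 and 0.73 on the log2 scale on the probe of each that passed. GADD45A fell by 0.75 on the log2 scale. MDM2, CDKN1A, SESN1, PPM1D and TP53INP1 did not pass the test. Passing means an adjusted p under 0.05 in limma, with Benjamini-Hochberg adjustment over all probes. Of the 12 probes, 3 passed, 2 higher and 1 lower, a share of 25%, while 13.8% of all probes passed. Of all probes, 6.65% passed higher and 7.19% lower. By the study's criteria, a fold change of at least 2 with an unadjusted p under 0.05 from limma, 0 of the 12 probes were called, against 6.11% of all probes called higher and 6.27% lower (12.4% in all), although 6 of the 12 had an unadjusted p under 0.05, against 35.7% of all probes.

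Promoters are shown for MDM2 and SESN1, with a p53 response element match near an annotated start, and for MDM4 and ZMAT3, which rose. They are RefSeq sequences of build GRCh38.p14, from 250 bases before to 50 bases after a start, written 5′ to 3′ on the gene's strand. Capitals mark 20 bases that match the p53 response element in MDM2 and SESN1, the ETS factor motif CCGGAAG in MDM4 and the CCAAT box, read on the other strand as ATTGG, in ZMAT3.
MDM2, chr12:68808767-68809066, plus strand: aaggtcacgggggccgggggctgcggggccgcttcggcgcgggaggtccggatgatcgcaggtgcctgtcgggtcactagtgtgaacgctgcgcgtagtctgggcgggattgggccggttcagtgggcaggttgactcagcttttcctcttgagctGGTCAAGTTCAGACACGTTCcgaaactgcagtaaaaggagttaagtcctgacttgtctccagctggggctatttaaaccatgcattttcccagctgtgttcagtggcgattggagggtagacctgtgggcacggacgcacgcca
SESN1, chr6:109008939-109009238, minus strand: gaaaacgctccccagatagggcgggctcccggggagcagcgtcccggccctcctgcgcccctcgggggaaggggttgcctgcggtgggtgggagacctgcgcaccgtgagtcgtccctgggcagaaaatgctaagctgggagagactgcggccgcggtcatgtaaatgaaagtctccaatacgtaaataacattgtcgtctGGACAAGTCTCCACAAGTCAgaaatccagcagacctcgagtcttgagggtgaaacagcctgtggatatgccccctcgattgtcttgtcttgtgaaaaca
MDM4, chr1:204516156-204516455, plus strand: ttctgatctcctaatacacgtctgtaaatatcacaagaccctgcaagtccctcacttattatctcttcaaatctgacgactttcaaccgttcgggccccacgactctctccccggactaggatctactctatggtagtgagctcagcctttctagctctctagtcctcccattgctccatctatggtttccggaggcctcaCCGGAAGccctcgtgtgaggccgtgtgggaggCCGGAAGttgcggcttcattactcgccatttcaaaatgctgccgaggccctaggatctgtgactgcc
ZMAT3, chr3:179071760-179072059, minus strand: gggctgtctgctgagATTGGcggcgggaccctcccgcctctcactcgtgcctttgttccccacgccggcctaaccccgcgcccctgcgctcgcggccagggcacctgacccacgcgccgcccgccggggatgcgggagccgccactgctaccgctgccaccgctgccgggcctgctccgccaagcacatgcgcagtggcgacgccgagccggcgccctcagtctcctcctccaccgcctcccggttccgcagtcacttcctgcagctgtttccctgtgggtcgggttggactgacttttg

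The p53 response element was searched as 2 adjoining half-sites of 10 bases of the p53 consensus, which reads the same on both strands, with the central C and G of each half-site kept. A site that lacks this C or G was not counted, so a window may hold p53 sites that the search left out. The search is reported for 7 of the 9 genes, with 13 promoter windows, and not for GADD45A and TP53INP1. The MDM2 window shown had a match with 2 mismatches, which lay from 94 to 75 bases before the start shown, and a further MDM2 window that overlaps it held the same site. A match with at most 2 mismatches was found in 0.285% of all 35116 promoter windows. One of 3 windows of SESN1 had a match with 3 mismatches, from 49 to 30 bases before the start, and 1.12% of all windows had a match with at most 3. No such match lay in the windows of MDM4, ZMAT3, CDKN1A, PPM1D or BTG2, which says nothing about sites elsewhere in these genes. The motif CCGGAAG on either strand was found 2 times in the MDM4 window and in 10.3% of all windows, and CCAAT on either strand in 34.6% of all windows. CCAAT was not particular to ZMAT3. The MDM2 window shown held it 2 times and the SESN1 window shown 1 time, left in lower case, while the other ZMAT3 window held 0. These are matches of letters, and binding was not measured.

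All values below are normalized intensities as the authors deposited them, on a linear scale whose lowest value is 50. All 12 probes lay above 50 on every array. The single probe for HOXD10 itself was at 50 on all 4 arrays, and no source places it inside or outside the plasmid's coding insert, so it cannot check the transfection. The median intensity was 361 on every array, and Pearson's r across probes was 0.995 between the HD arrays and 0.990 between the ND arrays, and 0.962 to 0.973 between arrays of different groups. The methods speak of technical or biological replicates without saying which, so every p-value rests on array-to-array spread that may be purely technical. Of 9 epithelial and ovarian markers, 2 rose, 1 fell and 6 did not pass, while 6.67% of all genes passed higher and 7.97% lower. EPCAM had 1767 and 1469 on the HD arrays, against 378 and 360 on the ND arrays, and KRT8 99.4 and 103 on the HD arrays, against 50 on both ND arrays. The lowest value fixed the SD of the KRT8 ND arrays at 0, so its call does not rest on a measured spread there. KRT19 fell, with 345 and 297 on the HD arrays and 665 and 737 on the ND arrays, while CDH1 and MUC16 were at 50 on all 4 arrays. PAX8 and WT1 were at 50 on both HD arrays, and ESR1 at 50 and 63.4. Of 3 mesenchymal markers, FN1 rose, with 12942 and 12555 on the HD arrays and 5237 and 6098 on the ND arrays. A dimmer probe of FN1, with a log2 fold change of 0.64, did not pass, and CDH2 and VIM did not either. The part of these marker changes in the results below was not tested. Of 6 leukocyte and endothelial markers, PTPRC passed, with 277 and 250 on the HD arrays and 81.1 and 99.1 on the ND arrays on a first probe and 50 on every array on another.

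**Figure D1:**
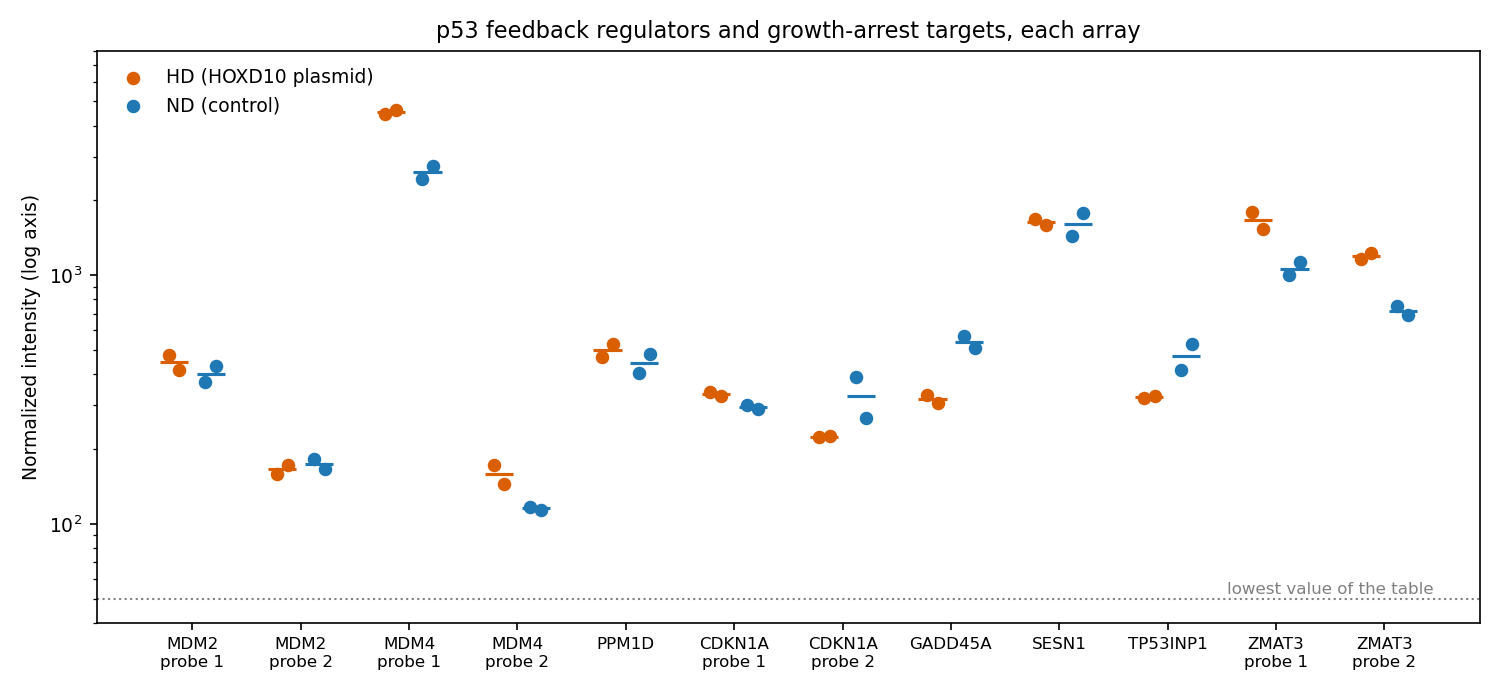
Normalized intensity (log axis) of the 12 probes on each array, with HD (orange) left of ND (blue); points are single arrays and bars the mean of 2. On MDM4 probe 1 the HD arrays are at 4465 and 4634 and the ND arrays at 2440 and 2752, whereas the groups of MDM2, PPM1D and SESN1 overlap.

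Of the members that restrain p53 (MDM2, MDM4 and PPM1D), MDM4 was the one that passed. Its brighter probe (probe 1) gave 4465 and 4634 on the HD arrays and 2440 and 2752 on the ND arrays. Both HD arrays were above both ND arrays. The means were 4549 ± 120 in HD and 2596 ± 221 in ND cells (SD, n = 2 each), and the log2 fold change, HD minus ND, was 0.81 (standard error 0.0817, adjusted p = 0.0434 from limma), or 1.76-fold. The dimmer probe (probe 2) gave 172 and 145 on the HD arrays and 117 and 114 on the ND arrays, which again did not overlap. Its log2 fold change of 0.45 had an interval from 0.07 to 0.84 and did not pass (adjusted p = 0.111 from limma). In bulk RNA a change in the share of cells that carry a transcript and a change in its amount per cell cannot be told apart.

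MDM2, the ligase that pairs with MDM4 to restrain p53, had 476 and 416 on the HD arrays and 371 and 433 on the ND arrays on its brighter probe. Its dimmer probe gave 158 and 173 on the HD arrays and 183 and 166 on the ND arrays. The groups overlapped on both probes. The log2 fold changes were 0.15 (95% interval -0.32 to 0.62) and -0.07 (95% interval -0.38 to 0.24), and neither passed (adjusted p = 0.544 and 0.66 from limma). Both intervals leave out a 2-fold change in either direction. PPM1D gave 470 and 527 on the HD arrays and 405 and 483 on the ND arrays, so its groups overlapped as well. Its log2 fold change was 0.17, with an interval from -0.31 to 0.65 (adjusted p = 0.500 from limma). Whether MDM4 changed more than MDM2 was not tested.

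CDKN1A encodes p21, the inhibitor of cyclin-dependent kinases by which p53 stops cells before they copy their DNA. Its brighter probe gave 338 and 327 on the HD arrays and 300.0 and 291 on the ND arrays, without overlap. This small difference, a log2 fold change of 0.17 (standard error 0.0318, 95% interval 0.06 to 0.28), was short of the threshold (adjusted p = 0.0773 from limma). The dimmer probe lay the other way, with 224 and 225 on the HD arrays and 390 and 266 on the ND arrays. Its ND arrays differed by 1.47-fold from each other, and the log2 fold change of -0.52 had an interval from -1.39 to 0.35 (adjusted p = 0.283 from limma). Both probes left the groups apart but in opposite directions, so no direction is given for CDKN1A.

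GADD45A, a small acidic protein that is induced by DNA damage and binds PCNA and the mitotic kinase CDK1, was lower in HD cells. It had 331 and 307 on the HD arrays and 568 and 508 on the ND arrays. The groups lay apart by more than either pair of arrays. The means were 319 ± 16.9 in HD and 538 ± 42.3 in ND cells (SD, n = 2 each), and the log2 fold change was -0.75 (standard error 0.087, 95% interval -1.06 to -0.45, adjusted p = 0.0475 from limma). This is 1.69-fold lower. With the variance trend in limma it did not pass (adjusted p = 0.0648 from limma).

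SESN1, a sestrin that restrains the growth kinase complex mTORC1, gave 1683 and 1593 on the HD arrays and 1439 and 1782 on the ND arrays. The HD arrays lay between the ND arrays. The log2 fold change was 0.03, with an interval from -0.47 to 0.53 (adjusted p = 1 from limma), which leaves out a 2-fold change. TP53INP1, a p53-inducible nuclear protein that also takes part in autophagy, gave 321 and 326 on the HD arrays and 415 and 529 on the ND arrays. Its groups did not overlap. The log2 fold change of -0.53 had an interval from -1.09 to 0.02 and did not pass (adjusted p = 0.147 from limma), but it passed with cyclic loess and with a shared 75th percentile (adjusted p = 0.0344 and 0.0423 from limma).

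ZMAT3, a zinc finger protein that binds RNA and is a p53 target, was higher on both of its probes. The dimmer probe (probe 2), which passed, gave 1159 and 1233 on the HD arrays and 749 and 691 on the ND arrays. The means were 1196 ± 51.8 in HD and 720 ± 40.8 in ND cells (SD, n = 2 each), a log2 fold change of 0.73 (standard error 0.0661, adjusted p = 0.0413 from limma). The brighter probe (probe 1) gave 1796 and 1530 on the HD arrays and 1000 and 1129 on the ND arrays, with a log2 fold change of 0.64 (95% interval 0.18 to 1.10, adjusted p = 0.0865 from limma). On both probes every HD array was above every ND array. After quantile normalization the probes changed places at the threshold, with adjusted p = 0.0525 for probe 2 and 0.0411 for probe 1 from limma.

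**Figure D2:**
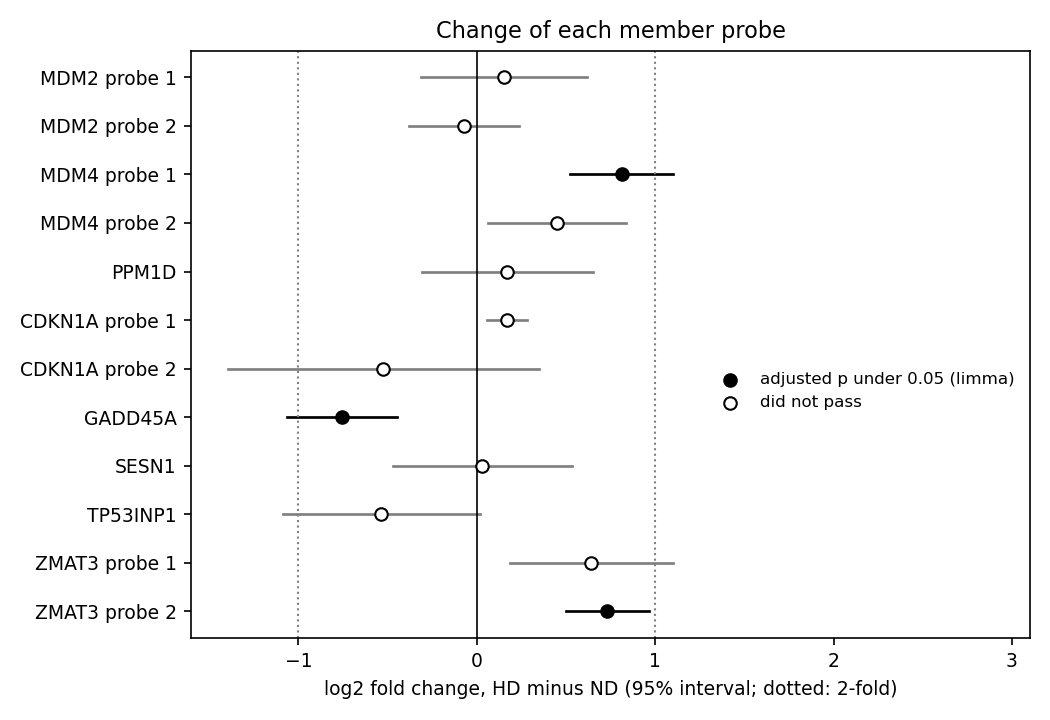
Log2 fold change, HD minus ND, of each probe (points) with its 95% interval from limma (lines); filled points passed an adjusted p under 0.05 and dotted lines mark a 2-fold change. MDM4 probe 1 (0.81), ZMAT3 probe 2 (0.73) and GADD45A (-0.75) are filled, and none of the 12 points reaches a 2-fold change.

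The size of the changes can be set beside those of all probes. The groups did not overlap for 8 of the 12 probes, 5 higher and 3 lower, or 66.7%, against 24.9% of all probes higher and 34.8% lower (59.7% in all). That share lies near the background. The median log2 fold change was 0.16 over the 12 probes and -0.02 over all probes, and the median size was 0.49 and 0.37. Of the 13981 probes in the same brightness range, 9.73% passed higher and 7.01% lower, and their median size of change was 0.47.

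Scaling did not turn the direction of any of the 12 probes. Over the deposited, quantile, cyclic loess and 75th percentile scalings, the log2 fold change ran from 0.81 to 0.95 for MDM4 probe 1, from 0.70 to 0.73 for ZMAT3 probe 2 and from -0.77 to -0.75 for GADD45A. With 1 array left out it ran from 0.73 to 0.90 for MDM4 probe 1, from 0.67 to 0.79 for ZMAT3 probe 2 and from -0.83 to -0.67 for GADD45A. SESN1 lay on either side of 0, from -0.12 to 0.19. With robust eBayes none of these 3 calls held (adjusted p = 0.0642 for MDM4 probe 1, 0.0617 for ZMAT3 probe 2 and 0.0685 for GADD45A from limma). No probe of the whole array passed an adjusted p under 0.05 from limma with any array left out, so these fits do not tell the members from other genes.

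**Figure D3:**
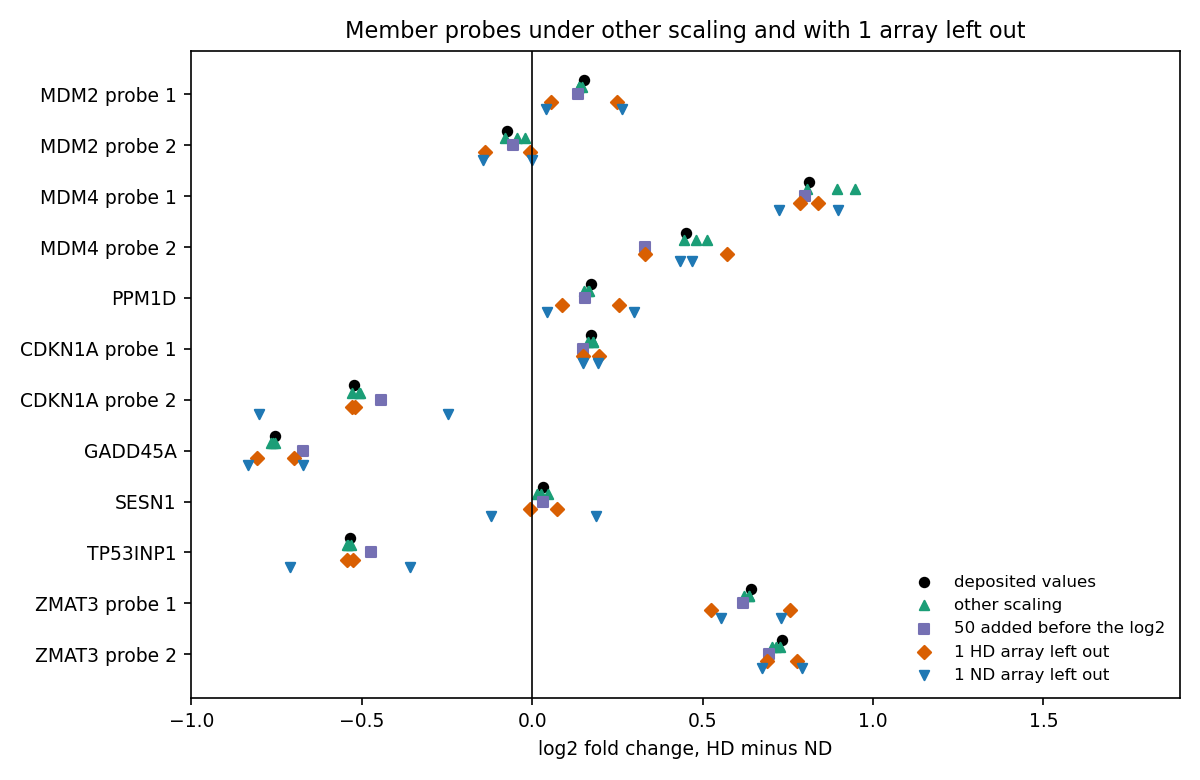
Log2 fold change, HD minus ND, of each probe with the deposited values (black), 3 other scalings (green), 50 added before the log2 (purple), 1 HD array left out (orange) and 1 ND array left out (blue). MDM4, ZMAT3 and GADD45A stay on their side of 0, and SESN1 lies from -0.12 to 0.19 with 1 array left out.

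The other genes of the pathway were counted from lists with 1 probe a gene, the probe with the highest mean log2 intensity. Of 19090 genes, 6.67% passed higher and 7.97% lower, with a median log2 fold change of -0.05. Of 23 measured genes of the p53 family and its regulators, 1 rose, 3 fell and 19 did not pass, with a median of 0.00. These counts turned with the scaling, to 6 higher and 3 lower after quantile normalization, 9 and 4 with cyclic loess and 7 and 5 at a shared 75th percentile. Taking the probe with the smallest p gave 3 and 3, and robust eBayes left 1 higher and 0 lower, so the falls below did not hold there. USP7, a deubiquitinase that stabilises both MDM2 and p53, had 4397 and 4212 on the HD arrays and 2045 and 2105 on the ND arrays, a log2 fold change of 1.05 (adjusted p = 0.0266 from limma). Its other probes lay at 0.73 and 0.47 and did not pass. RPL5, a ribosomal protein that binds and inhibits MDM2, had 38047 and 36714 on the HD arrays and 81225 and 91216 on the ND arrays, a log2 fold change of -1.20 (adjusted p = 0.0360 from limma). CDKN2A encodes the MDM2 inhibitor ARF as well as p16. Its brighter probe had 4408 and 3815 on the HD arrays and 8796 and 9952 on the ND arrays (log2 fold change -1.19, adjusted p = 0.0440 from limma), while another was at 50 on every array, and no source says which product either detects. HIPK2, a kinase that phosphorylates p53, fell on both of its brighter probes, by 0.55 and 0.71 on the log2 scale, and its dimmest probe lay at -0.70 without passing. p53's own transcript was not analysed here.

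Of 49 measured p53 targets outside the members, 6 rose, 4 fell and 39 did not pass. The median log2 fold change was -0.36, with 33 genes below 0 and 15 above. More fell than rose under some settings, with 8 higher and 13 lower with cyclic loess and 9 and 14 at a shared 75th percentile. Without dim probes 9 rose and 17 fell, and with the variance trend 6 and 9. Others gave 8 and 8 after quantile normalization, 6 and 4 with 50 added before the log2 and 5 and 4 by the study's criteria. Taking the probe with the smallest p for each gene gave 6 and 6, and robust eBayes left 1 higher and 0 lower. FAS, a death receptor, had 190 and 189 on the HD arrays and 50, the floor, on each ND array, and was thus at least 3.78-fold higher (adjusted p = 0.0179 from limma). The floor fixed the SD of its ND arrays at 0, so this p-value does not measure their spread. FBXW7, a substrate receptor of the SCF ubiquitin ligase, had 1758 and 1600 on the HD arrays and 586 and 653 on the ND arrays, and all 3 of its probes passed, at 1.44, 2.10 and 1.57 on the log2 scale. TP53I3, a quinone oxidoreductase, had 2069 and 2044 on the HD arrays and 4507 and 5011 on the ND arrays (log2 fold change -1.21, adjusted p = 0.0343 from limma). These targets therefore held changes in both directions of more than 2-fold. GDF15, a stress-induced cytokine, had a log2 fold change of -0.99, TIGAR, which lowers glycolytic flux, of -0.36, and KITLG, the ligand of KIT, of -1.22 on a first probe, and these passed (adjusted p = 0.0332, 0.0399 and 0.0331 from limma). A dimmer probe of KITLG lay at -0.15 and did not pass.

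Of 23 measured paralogs of the members, 1 rose and 22 did not pass, with a median log2 fold change of -0.05. At a shared 75th percentile and without dim probes, 2 passed higher and 4 lower, and with cyclic loess 3 and 2. Robust eBayes left none of these calls. The gene that rose was BTG1, a relative of BTG2 that slows proliferation and is also among the p53 targets. It had 4102 and 4225 on the HD arrays and 2262 and 2613 on the ND arrays (log2 fold change 0.78, adjusted p = 0.0499 from limma). SESN2, the stress-induced relative of SESN1, had 1601 and 1822 on the HD arrays and 2692 and 2940 on the ND arrays, and its log2 fold change of -0.72 did not pass (adjusted p = 0.056 from limma). GADD45B and GADD45G had log2 fold changes of -0.60 and -0.13 (adjusted p = 0.0677 and 0.653 from limma). Of the kinase inhibitors related to p21, CDKN1B had 0.16 and CDKN1C -1.05 (adjusted p = 0.370 and 0.0879 from limma). The arrays of all these genes but GADD45G lay apart by group, as did those of 59.7% of all probes, so this does not set these genes apart.

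Of 32 genes of the cell cycle engine on which p21 acts, cyclins, cyclin-dependent kinases, E2F factors and pocket proteins, 1 rose, 2 fell and 29 did not pass, with a median log2 fold change of -0.01 and 16 genes on each side of 0. The medians of this list and of the regulators lay above 0 after quantile (0.12 and 0.15) and cyclic loess normalization (0.16 and 0.24), so no direction is given for either list. The calls of the cell cycle list numbered 3 higher and 4 lower after quantile normalization, 5 and 3 with cyclic loess, 4 and 5 at a shared 75th percentile and 0 with robust eBayes. PCNA, the sliding clamp of DNA replication that p21 binds, had 24941 and 22068 on the HD arrays and 62726 and 65842 on the ND arrays, a log2 fold change of -1.45 (adjusted p = 0.0346 from limma). CCND2, a D-type cyclin, had a log2 fold change of -0.34 (adjusted p = 0.0427 from limma). RB1, the pocket protein that holds E2F factors, had 1011 and 858 on the HD arrays and 476 and 480 on the ND arrays, a log2 fold change of 0.96 (adjusted p = 0.0458 from limma).

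Very long transcripts, which are sensitive to the state of the RNA, were counted beside the rises of MDM4 and ZMAT3. Of 42 such genes measured, 13 rose, 1 fell and 28 did not pass, with a median log2 fold change of 0.73. The number higher was 23 after quantile normalization, 28 with cyclic loess, 26 at a shared 75th percentile and 0 with robust eBayes. Their part in the rises of MDM4 and ZMAT3 was not tested.

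**Figure D4:**
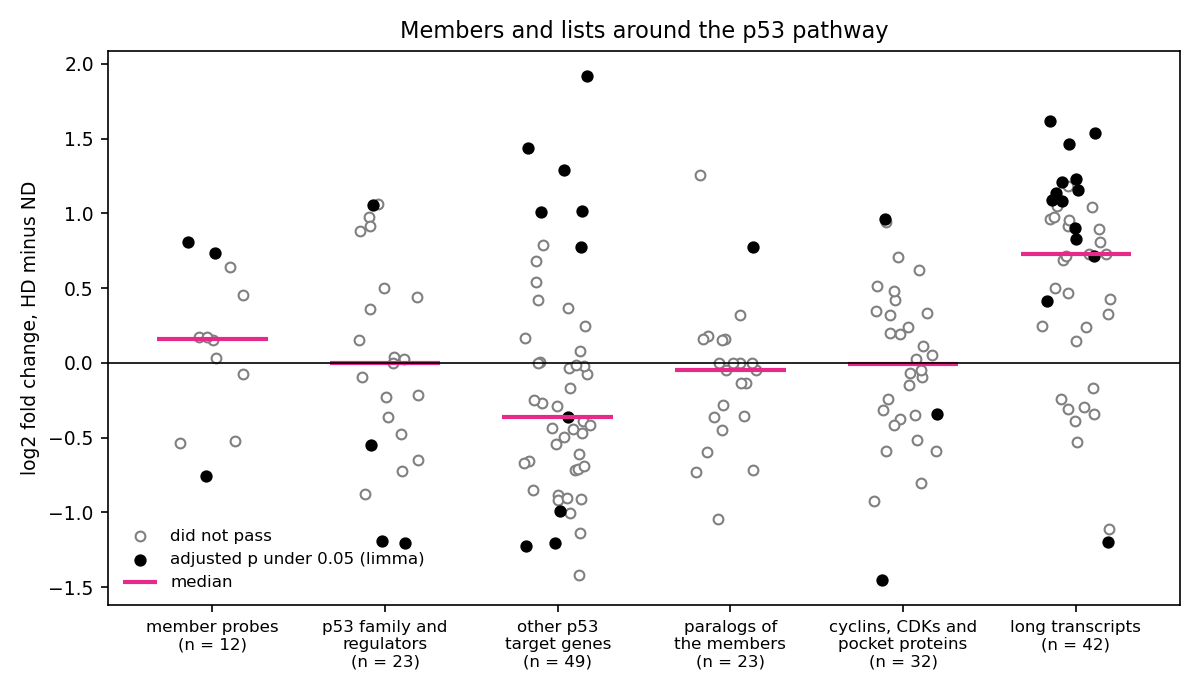
Log2 fold change, HD minus ND, of the 12 member probes and of the genes of 5 lists (1 probe a gene); filled points passed the test and pink bars are medians. The medians are 0.16 for the member probes, -0.36 for the other p53 targets and 0.73 for long transcripts, and points lie on both sides of 0 in every column.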

How the data were processed

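Total RNA of TOV112D cells was hybridised to Human Whole Genome OneArray v7 arrays, 2 for HD and 2 for ND. Per the methods, the authors scanned the arrays, read the spots with GenePix and centred the arrays at the 75th percentile in Rosetta Resolver. The deposited values are normalized linear intensity values, none below 50. In the table the arrays share their median and not their 75th percentile. How background was treated is unknown, and the number of arrays limits the precision.

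Deposited values were put on the log2 scale and tested with limma 3.58.1 (lmFit and eBayes) in R 4.3.3 over all 28264 probes, two-sided and without a block, with Benjamini-Hochberg adjustment. Intervals are 95% intervals of that fit. The platform annotation gave 1 symbol to 25893 probes and none to 2371. Every probe of the members is given. From the lists of regulators, other targets, paralogs and cell cycle genes, those that passed were named, at most 6 a list by smallest p, with SESN2, GADD45B, GADD45G, CDKN1B and CDKN1C in any case. Long transcripts were only counted, and markers were given as a check of the samples. The members and lists were chosen with earlier results of these data known. The alternatives covered scaling, a pseudocount of 50, a filter on dim probes, variance models, a replicate block, leaving out each array, the call rule and the probe taken for a gene. GADD45A and TP53INP1 have no promoter printed.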

Additional observations from a re-analysis of the deposited data

How the results depend on the processing

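The 3 probes that passed (MDM4 probe 1, ZMAT3 probe 2 and GADD45A) kept their direction under all 13 alternatives, but not their side of the threshold. The variance models, the filter and the blocks leave a log2 fold change as it is. Since the groups of these probes did not overlap, neither the pseudocount nor leaving out 1 array could turn its sign. Only the other scalings could have turned it. Of the 12 probes, 3 passed higher and 2 lower with cyclic loess and with a shared 75th percentile, and 2 higher and 0 lower with the variance trend. With robust eBayes 0 passed, as with the replicate block and by the study's criteria, while 4 to 7 of the 12 had an unadjusted p under 0.05 from limma over the alternatives. Over all probes, 1879 passed higher and 2033 lower. The counts were 3300 and 2751 after quantile normalization, 4973 and 3929 after cyclic loess and 4256 and 5216 at a common 75th percentile. They were 4042 and 5477 among probes above 50 on at least 2 arrays, and 271 and 293 with robust eBayes. With the replicate number as a block, 0 probes passed (smallest adjusted p = 0.142 from limma), although 27.2% had an unadjusted p under 0.05. The difference between replicates 1 and 2 in HD correlated at r = -0.32 over probes with that in ND, and with the crossed pairing, chosen after seeing the data, 0 probes passed as well. The samples share only a number. With any array left out 0 probes passed in either direction, among the 12 or over all, with unadjusted p under 0.05 for 25% to 32.1% of probes. SESN1 ran from -0.12 to 0.19 with 1 array left out, and turned to -0.01 without HD replicate 1 and -0.12 without ND replicate 1. By the study's criteria 49.4% of calls were higher, but 64.1% with quantile and 61.4% with cyclic loess scaling. The counts of the gene lists moved with the scaling as given beside them, and no list had a call with the replicate block, the crossed pairing or any array left out.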
